A study of Mus musculus with 22 samples.

Results

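SMAD proteins carry the signals of bone morphogenetic proteins (BMP) and TGF-β from receptors at the cell surface to the nucleus, and ID proteins are among the best known products of BMP signalling. Here their transcripts are described in 4 cell populations sorted from the aorta-gonad-mesonephros (AGM) region of the mouse embryo, the site where blood stem cells first arise from arterial endothelium. The members are the rows of the count table for *Smad1* to *Smad7* and *Id1* to *Id3*, which are 10 of its 24454 gene symbols. They were chosen by name, with earlier results of these data known, and all 10 passed the filter on low counts in every comparison.

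Each library was made from 25 cells of untreated C57BL/6 embryos with the SMART-Seq2 method, and all cells had passed a gate for VE-cadherin, the adhesion protein of endothelium. CD44Neg cells carried no CD44 on their surface and gave 10 libraries (4 from embryonic day 9.5, or E9.5, 3 from E10 and 3 from E11). CD44LowKitNeg cells had low CD44 and no KIT receptor and gave 6 libraries (3 from E11, 2 from E10 and 1 from E9.5), and CD44LowKitPos cells carried both proteins and gave 3 libraries (1 at E9.5, 2 at E10). CD44High cells gave 3 libraries, all at E11. No source used here says whether libraries of a population came from different embryos or litters, so the p-values measure the spread between these libraries, which may be technical. The date in the labels changes with the stage, and CD44LowKitPos and CD44High share no stage, so population, stage and date cannot be told apart between them.

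In the textbook pathway, activated BMP receptors phosphorylate SMAD1 and SMAD5, and activated TGF-β receptors phosphorylate SMAD2 and SMAD3. Both kinds of receptor SMAD then join the common partner SMAD4 and bind DNA. SMAD6 and SMAD7 are inhibitory SMADs, made in answer to the signal, that block the receptors and so close a negative feedback loop. ID1, ID2 and ID3 lack a DNA-binding domain and hold E proteins such as TCF3, TCF4 and TCF12 away from DNA, and these E proteins are the partners of TAL1 and LYL1 in blood-forming endothelium.

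Between 3912350 and 8657546 reads were counted per library. Counts were scaled to library size by TMM, and a level is given as normalized CPM (a gene's share of the scaled library, times a fixed constant). The summed level of 6 endothelial markers (*Cdh5*, *Pecam1*, *Kdr*, *Tie1*, *Tek*, *Cldn5*) was 2115 to 3951 in CD44Neg, 2668 to 6463 in CD44LowKitNeg, 460.1 to 1266 in CD44LowKitPos and 11.9 to 60.5 in CD44High. *Cdh5*, which encodes VE-cadherin, had no count in any CD44High library, although these cells came through the VE-cadherin gate. All 7 macrophage markers were present in CD44High, with a summed level of 1584 to 4329, against 0 to 12.4 in CD44Neg, 0 to 53 in CD44LowKitNeg and 8.06 to 17.6 in CD44LowKitPos. *Adgre1*, *C1qa*, *C1qb* and *C1qc* were at 0 in all libraries of the other populations. Every result on CD44High below therefore moves together with macrophage transcripts, and their part in it was not tested. *Col1a1* and other mesenchyme transcripts were also present in CD44High, with a summed level of the 7 mesenchyme markers of 0.272 to 777. One CD44Neg library stood apart among the members. Replicate 3 (E11) had the highest CD44Neg level of *Smad5*, *Smad6*, *Smad7*, *Id1*, *Id2* and *Id3* and the lowest of *Smad1*, *Smad2*, *Smad3* and *Smad4*, while its *Cd44* level of 21.8 lay within the CD44Neg range of 2.14 to 58.9.

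RefSeq windows of 300 bases, from 250 before to 50 after a transcription start (GRCm38.p6), were found for 6 of the 10 members. They were searched on both strands for CAGAC, the box bound by SMAD3 and SMAD4, and for GGCGC, a GC-rich motif bound by BMP-type SMADs. CAGAC occurs in 49.6% of all such windows and GGCGC in 36.8%. The *Smad6* window held 2 matches to GGCGC, 1 of them after the start, and none to CAGAC, the *Id2* window held 2 and 0, and the *Id3* window held 0 and 2. The *Smad1* window held 4 matches to GGCGC, and the *Smad3* window neither motif. Below are the parts of the *Smad6* and *Id2* windows that lie upstream of the start and outside annotated exons, shown because these genes were higher together in CD44LowKitNeg. The *Smad6* stretch is chr9:64022060-64022309 and the *Id2* stretch is chr12:25096254-25096342, which lies in an intron of a longer *Id2* transcript, both on the minus strand of GRCm38.p6. Capitals mark GGCGC or its reverse complement GCGCC, which overlap in *Id2* and were counted as 2 matches. A match describes the letters only and shows no binding.
Smad6: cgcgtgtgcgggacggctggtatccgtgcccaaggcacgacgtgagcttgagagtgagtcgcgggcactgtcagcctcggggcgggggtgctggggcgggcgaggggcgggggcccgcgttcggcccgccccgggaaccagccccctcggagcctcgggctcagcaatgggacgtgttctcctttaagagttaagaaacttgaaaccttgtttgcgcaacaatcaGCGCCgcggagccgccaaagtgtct
Id2: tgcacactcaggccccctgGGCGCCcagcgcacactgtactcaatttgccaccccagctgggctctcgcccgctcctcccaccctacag

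Levels of different genes were compared per kilobase of exon (CPM per kb). In CD44Neg the ID genes far exceeded the SMAD genes: *Id3* averaged 406, *Id1* 121.9 and *Id2* 104 CPM per kb. Among the SMAD genes there, *Smad4* averaged 13, *Smad2* 8.84, *Smad5* 7.53, *Smad1* 4.53, *Smad3* 4.18, *Smad7* 3.38 and *Smad6* 2.49 CPM per kb. *Smad6* thus had the lowest mean of these 7 SMAD genes, and was the lowest of them in 7 of 10 libraries. In CD44LowKitNeg it averaged 21.4 CPM per kb, ahead of *Smad4* with 17.3 and *Smad7* with 14.3, and it was the highest SMAD gene in 4 of 6 libraries. *Id3* was the highest ID gene per kb in all 16 libraries of both populations. In CD44LowKitPos and CD44High the order of the ID genes was not fixed: *Id1* led in 1 of 3 CD44LowKitPos libraries and *Id2* in 1 of 3 CD44High libraries.

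**Figure D1:**
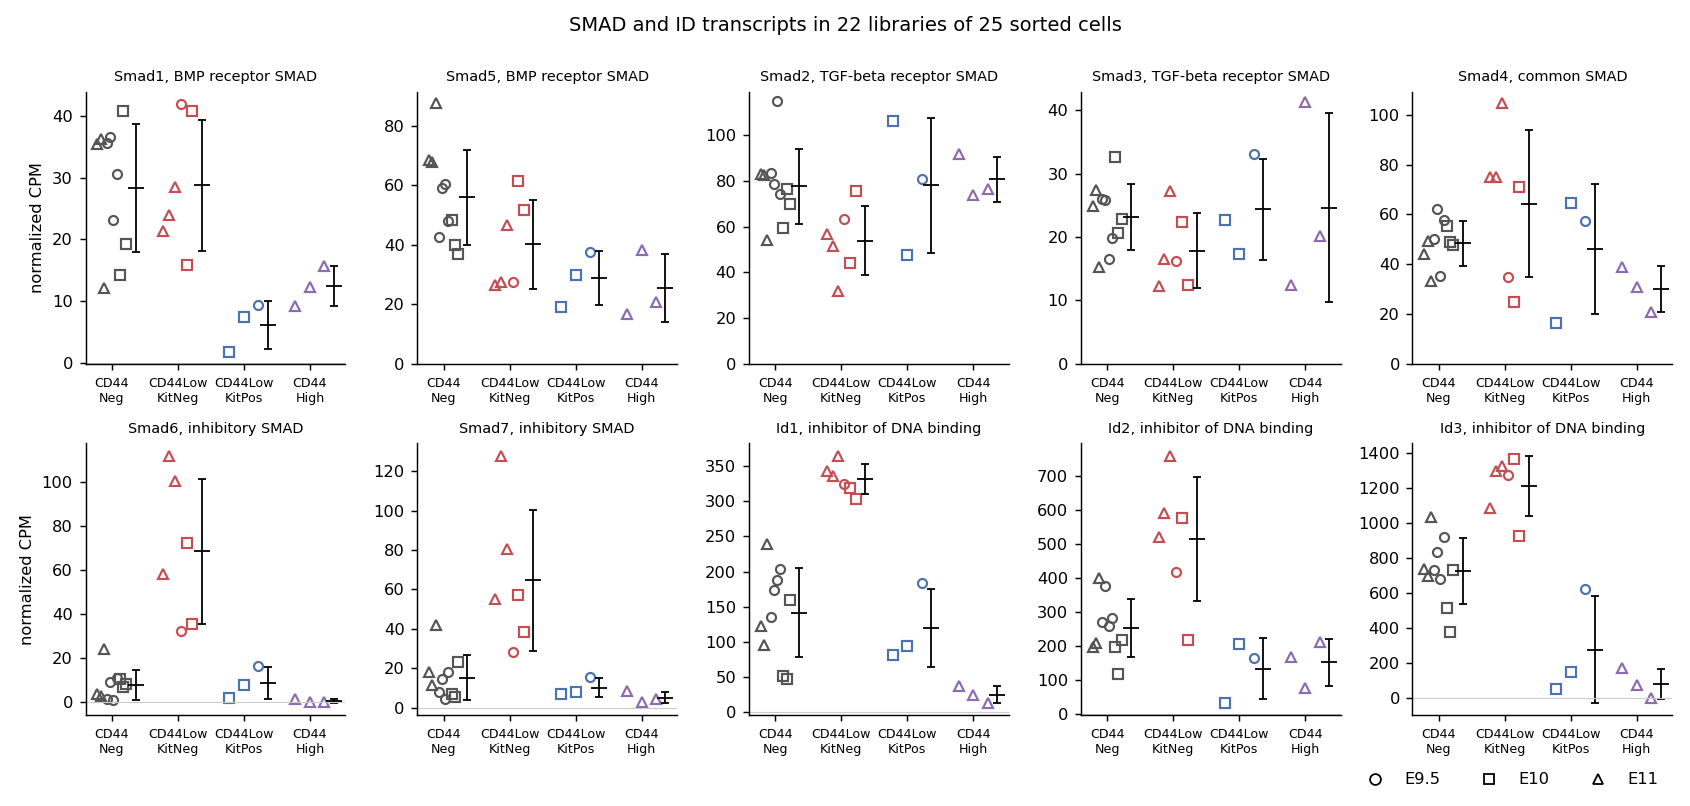
Normalized CPM of each of the 10 members (one panel per gene, linear axes) in every library of the 4 populations; circles are E9.5, squares E10 and triangles E11, and the black bar is the mean with its SD over 10, 6, 3 and 3 libraries. *Smad6*, *Smad7* and the 3 ID genes peak in CD44LowKitNeg, while the *Smad2* and *Smad3* ranges overlap in all 4 populations.

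The first comparison asked how the CD44LowKitNeg endothelium differs from the CD44Neg endothelium. Of the 10 members, 5 were higher in CD44LowKitNeg at an adjusted p under 0.01 in edgeR's quasi-likelihood test and none was lower, beside 4.94% of the 11022 tested genes that were higher and 5.23% that were lower. The 5 were both inhibitory SMADs and all 3 ID genes, and none of the receptor SMADs or *Smad4* was called. The median log2 fold change of the members was 0.58, against 0.01 over all genes. Beside this difference, the summed level of 7 mesenchyme or smooth muscle markers was 133 to 356 in CD44LowKitNeg and 0.465 to 125.9 in CD44Neg, mostly from *Acta2* and *Tagln*. Of the others, *Pdgfra* reached 10.1 in CD44LowKitNeg and 4.17 in CD44Neg, *Prrx1* 16.6 and 4.86, *Pdgfrb* 13.5 and 0.402 and *Twist1* 5.56 and 2.39, and *Col1a1* had no count in either. The summed level of 6 erythroid markers was 13.8 to 60.7 in CD44LowKitNeg and 0 to 22.7 in CD44Neg. The part of these transcripts in the result was not tested.

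The inhibitory SMADs moved most. *Smad6*, whose product acts mainly on BMP receptors, ranged from 1.12 to 24.2 normalized CPM in CD44Neg with a median of 7.59, and from 32.6 to 111.9 in CD44LowKitNeg with a median of 65.3. The highest CD44Neg library, replicate 3, stayed below the lowest CD44LowKitNeg library, and the fitted difference was 8.60-fold (log2 fold change 3.10, SE 0.50, adjusted p = 0.00026). *Smad7*, which acts on both TGF-β and BMP receptors, ranged from 4.47 to 42 with a median of 13.1 in CD44Neg and from 28.3 to 127.7 with a median of 56.2 in CD44LowKitNeg. Its groups overlapped, since CD44Neg replicate 3 lay above the 2 lowest CD44LowKitNeg libraries, and the log2 fold change was 2.09 (SE 0.43, adjusted p = 0.00186). Groups that did not overlap, with CD44LowKitNeg above, were found for *Smad6* and *Id1* among the members and for 2.5% of all genes.

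*Id1*, the ID gene most closely tied to BMP signalling in endothelium, was the most even member in CD44LowKitNeg. Its 6 CD44LowKitNeg libraries lay between 304 and 364.8 normalized CPM with a median of 330.5, a coefficient of variation of 6.39%, although they came from 3 stages. The 10 CD44Neg libraries spread from 46.8 to 239 with a median of 147 and a coefficient of variation of 44.9%, all below CD44LowKitNeg. The log2 fold change was 1.24 (SE 0.27, adjusted p = 0.00303). *Id3*, the most abundant member, ranged from 379 to 1036 with a median of 731 in CD44Neg and from 926 to 1366 with a median of 1284 in CD44LowKitNeg. Only the lowest CD44LowKitNeg library, replicate 16 at E10, fell into the CD44Neg range, and the log2 fold change was 0.75 (SE 0.17, adjusted p = 0.00403). *Id2* ranged from 117 to 400.2 with a median of 239 in CD44Neg and from 217 to 759 with a median of 549 in CD44LowKitNeg. The same replicate 16 was the lowest and lay below the CD44Neg median, and the log2 fold change was 1.03 (SE 0.25, adjusted p = 0.00536).

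*Smad6*, *Smad7* and *Id1* kept their calls whichever of the 16 libraries was left out. The call of *Id2* was lost without CD44Neg replicate 1, 2 or 8 or CD44LowKitNeg replicate 11, 12, 13 or 15, with an adjusted p of 0.0101 to 0.0205. The call of *Id3* was lost without CD44LowKitNeg replicate 12 (adjusted p = 0.0103) or 13 (adjusted p = 0.011), and with all 22 libraries in the fit the adjusted p was 0.265 for *Id3* and 0.0253 for *Id2*.

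None of the genes that carry the signal itself was called between these populations. *Smad1* ranged from 12.1 to 40.7 normalized CPM in CD44Neg and from 15.9 to 41.8 in CD44LowKitNeg, and the 95% interval of its log2 fold change reached from -0.65 to 0.70. *Smad5*, the other BMP receptor SMAD, averaged 55.9 ± 15.8 (SD, n = 10) and 40.2 ± 15 (n = 6), and its difference of -0.47 on the log2 scale (SE 0.25) had an adjusted p of 0.205. *Smad2* averaged 77.6 ± 16.4 and 53.9 ± 15.1, and none of the 6 CD44LowKitNeg libraries exceeded the CD44Neg median, but the difference of -0.52 (SE 0.20) missed the threshold with an adjusted p of 0.0779. *Smad3* was at 23.2 ± 5.24 and 17.8 ± 5.89 (log2 fold change -0.37, SE 0.29, adjusted p = 0.409). *Smad4* was at 48.4 ± 9.11 and 64.3 ± 29.5 (log2 fold change 0.42, SE 0.26, adjusted p = 0.28). Its spread in CD44LowKitNeg, from 24.7 to 104.7, reached beyond both ends of the CD44Neg range of 33.3 to 62.

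Since stage and date coincide, the comparison was repeated within stages, from means of each population and stage in a fit of all 22 libraries. At E11 the log2 fold changes were 3.12 for *Smad6* (SE 1.01, adjusted p = 0.0622), 1.87 for *Smad7* (SE 0.66, adjusted p = 0.0852), 1.19 for *Id1* (SE 0.42, adjusted p = 0.0853), 1.22 for *Id2* (SE 0.50, adjusted p = 0.15) and 0.58 for *Id3* (SE 0.64, adjusted p = 0.661). At E10 they were 2.65 for *Smad6* (SE 1.05, adjusted p = 0.167), 2.01 for *Smad7* (SE 0.71, adjusted p = 0.125), 1.86 for *Id1* (SE 0.46, adjusted p = 0.037), 1.16 for *Id2* (SE 0.55, adjusted p = 0.244) and 1.08 for *Id3* (SE 0.70, adjusted p = 0.409). All 5 genes were thus higher in CD44LowKitNeg at both stages, but edgeR called none of the 10 members at either stage, where it called 3.64% and 0.239% of all genes. At an unadjusted p under 0.05, 6 members passed at E11 and 4 at E10, beside 23.5% and 20% of genes, and no other tool was run within stages. By DESeq2 and limma voom on the pooled stages the same 5 members were called.

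**Figure D2:**
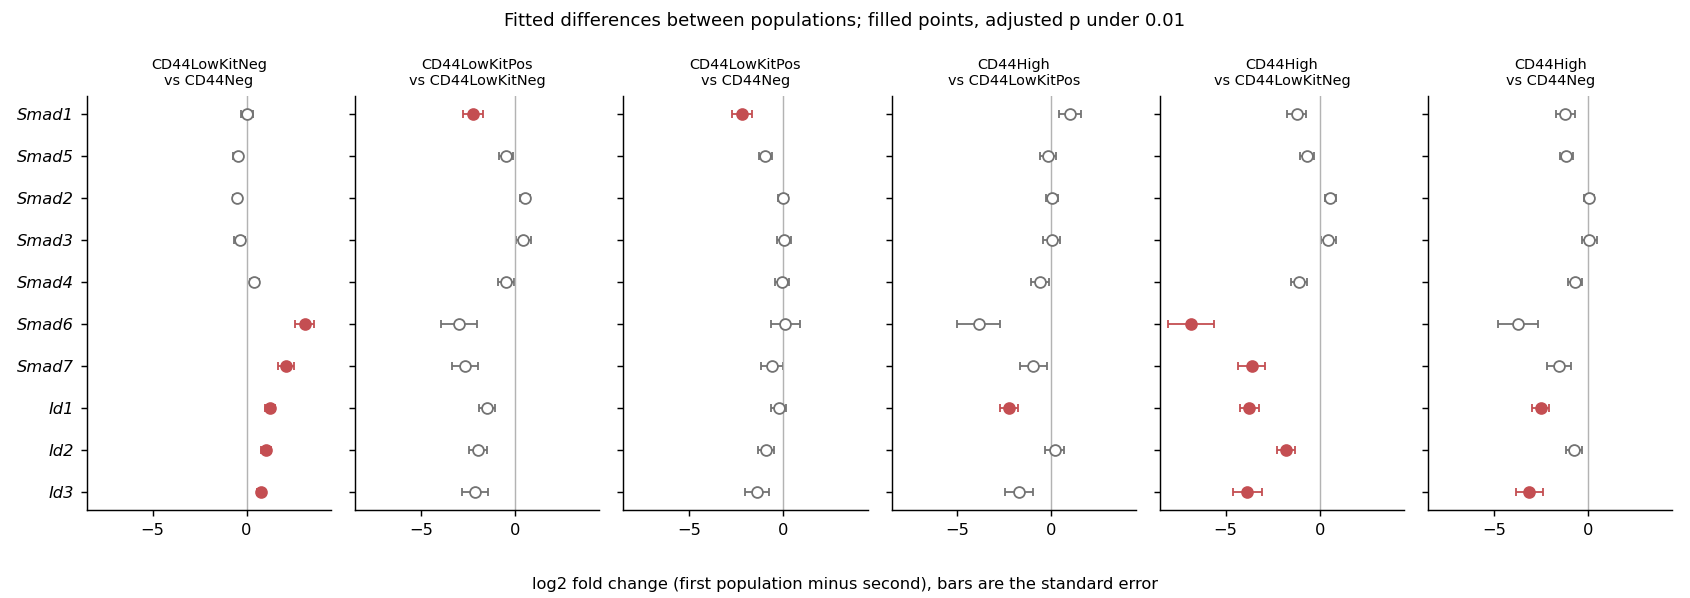
Fitted log2 fold change (first population minus second) of each member in the 6 comparisons of populations, with the SE as a bar; filled points passed an adjusted p of 0.01. The 5 filled points on the right in CD44LowKitNeg vs CD44Neg are *Smad6*, *Smad7*, *Id1*, *Id2* and *Id3*, and the same 5 are filled on the left in CD44High vs CD44LowKitNeg.

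Other genes of the pathway were counted in lists chosen by function. Of 13 BMP and TGF-β receptors, 10 were tested and 1 was higher in CD44LowKitNeg, the type II receptor *Bmpr2* (log2 fold change 1.38, SE 0.26, adjusted p = 0.000817). The list's median was 0.52, and *Acvr1* (1.16, SE 0.30, adjusted p = 0.0101) and *Bmpr1a* (2.75, SE 0.78, adjusted p = 0.0161) lay next to the threshold. Of 9 secreted or membrane antagonists only 4 were tested, and 3 were higher with a list median of 2.12. They were *Bmper* (log2 fold change 4.52, SE 1.05, adjusted p = 0.00474) and *Twsg1* (1.74, SE 0.32, adjusted p = 0.000653), which bind BMP ligands outside the cell, and *Sost* (2.50, SE 0.60, adjusted p = 0.00589), known mainly as a WNT antagonist. Of 16 SMAD regulators and co-repressors, all tested, 4 were higher and none was lower, with a median of 0.81. The leading ones were *Pmepa1*, which keeps receptor SMADs from the receptor (2.23, SE 0.40, adjusted p = 0.000633), the co-repressor *Skil* (1.27, SE 0.23, adjusted p = 0.000671) and the ubiquitin ligase *Rnf111*, which degrades SMAD7 and SKIL (1.30, SE 0.26, adjusted p = 0.00138).

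Of 8 textbook BMP targets outside the members, 4 were tested and 3 were higher: *Hey1* (log2 fold change 1.81, SE 0.23, adjusted p = 2.3e-05), *Tmem100* (3.21, SE 0.53, adjusted p = 0.00029) and *Gata2* (1.60, SE 0.31, adjusted p = 0.00101), with a list median of 1.71. *Hey1* is also a Notch target. Of 7 TGF-β targets, 5 were tested, 2 were higher and 1 was lower, with a median of -0.35. The 2 were *Skil* and *Pmepa1*, counted above, and the one that was lower was *Tgfbi*, an extracellular matrix gene, with no count in any CD44LowKitNeg library and 38.8 ± 51.6 normalized CPM (SD, n = 10) in CD44Neg (edgeR adjusted p = 0.00329). Of 8 SMAD transcription partners, 7 were tested and 1 was higher, *Zeb2* (log2 fold change 1.63, SE 0.36, adjusted p = 0.00327). Among the 6 E proteins and their partners, 5 were tested. *Lyl1* was higher (1.19, SE 0.23, adjusted p = 0.00103) and *Tcf4*, a target of ID proteins, was lower (-0.79, SE 0.18, adjusted p = 0.00399).

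The next comparisons asked how the members differ in CD44LowKitPos cells. The summed level of 6 blood progenitor markers was 250.7 to 544 normalized CPM there and 629 to 695 in CD44High. It was at most 34.1 in CD44Neg and 157 in CD44LowKitNeg. CD44LowKitPos and CD44High are called the blood-marker populations here, and CD44Neg and CD44LowKitNeg the endothelial populations. CD44LowKitPos also held endothelial markers, with a summed level of 460.1 to 1266, and the paper describes it as expressing both kinds of genes. Against CD44LowKitNeg, 1 of 10 members was called, *Smad1*, and it was lower, beside 1.71% of 12949 genes that were lower. *Smad1* measured 1.86, 7.47 and 9.35 normalized CPM in the 3 CD44LowKitPos libraries, all below the CD44LowKitNeg minimum of 15.9 and the CD44Neg minimum of 12.1. The log2 fold change was -2.20 against CD44LowKitNeg (SE 0.54, adjusted p = 0.00966) and -2.18 against CD44Neg (SE 0.52, adjusted p = 0.00917), where 1.41% of genes were lower and *Smad1* was again the only member called. It was also the only member below all CD44Neg libraries, as were 4.37% of genes. Both lie at the edge of the threshold. In fits without 1 library the first was lost in 17 of 22, with an adjusted p of 0.0101 to 0.077, and held only without CD44Neg replicate 3, 8 or 9, CD44LowKitNeg replicate 15 or CD44LowKitPos replicate 19. The second was lost in 15 of 22, with an adjusted p of up to 0.0798, and held only without CD44Neg replicate 3, 6 or 8, CD44LowKitNeg replicate 11, 15 or 16 or CD44LowKitPos replicate 19. Within E9.5 and E10 alone the log2 fold changes were -2.38 (SE 0.65, adjusted p = 0.0472) and -2.07 (SE 0.59, adjusted p = 0.0387). There edgeR called no member in either comparison, beside 0.934% and 3.17% of genes called. At an unadjusted p under 0.05, 6 and 2 members passed, beside 17.8% and 18.5% of genes. With all stages, limma voom did not call *Smad1* (adjusted p = 0.0239 and 0.0455).

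The 5 genes that were high in CD44LowKitNeg were all lower in each CD44LowKitPos library than in any CD44LowKitNeg library, which with *Smad1* makes 6 of 10 members, beside 7.35% of all genes. *Smad6* measured 1.86, 7.74 and 16.6 normalized CPM in CD44LowKitPos, and its log2 fold change was -2.97 (SE 0.94, adjusted p = 0.0397). *Smad7* measured 6.82, 8.27 and 15.8 (-2.65, SE 0.69, adjusted p = 0.0136). *Id1* measured 81.6, 94.2 and 183 (-1.47, SE 0.43, adjusted p = 0.0268). In each of these 3 genes the E9.5 library, replicate 19, was the highest. *Id2* measured 31.6, 204 and 163 (-1.95, SE 0.48, adjusted p = 0.0109), and *Id3* measured 55.4, 152 and 623 (-2.13, SE 0.68, adjusted p = 0.0421). With all libraries edgeR called none of the 5, while DESeq2's Wald test called *Smad6*, *Smad7*, *Id1* and *Id2* (adjusted p of 7.99e-05 to 0.00186) and limma voom called *Id1*, *Id2* and *Id3* (adjusted p of 0.000385 to 0.00411). DESeq2 gave *Id3* no adjusted p. In edgeR, *Smad7* passed without CD44Neg replicate 3 (adjusted p = 0.00846) or CD44LowKitNeg replicate 14 (adjusted p = 0.00971), and *Id2* without CD44Neg replicate 9 (adjusted p = 0.00894) or CD44LowKitNeg replicate 16 (adjusted p = 0.00636). *Id3* passed without CD44LowKitPos replicate 19, where its log2 fold change moved to -3.57 (adjusted p = 0.0044), or without CD44High replicate 22 (adjusted p = 0.00872).

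Of the 6 CD44LowKitNeg libraries 3 came from E11 and no CD44LowKitPos library did. Within E9.5 and E10 the log2 fold changes were -2.23 for *Smad6* (SE 1.05), -1.75 for *Smad7* (SE 0.70), -1.33 for *Id1* (SE 0.45), -1.55 for *Id2* (SE 0.54) and -2.25 for *Id3* (SE 0.72), with adjusted p-values of 0.086 to 0.271. With the CD44High libraries left out of the shared fit, an alternative chosen after seeing the data, *Id2* (adjusted p = 0.00971) and *Id3* (adjusted p = 0.00742) were called and *Smad1* was not (adjusted p = 0.0104). The summed endothelial markers were lower in the same direction, with at least 2668 in CD44LowKitNeg and at most 1266 in CD44LowKitPos, and 4 megakaryocyte markers were higher, with 21.7 to 115.5 against at most 3.76 (5.23 in CD44Neg). The mesenchyme markers were at 153 to 294.5 in CD44LowKitPos. The part of these transcripts in the CD44LowKitPos results was not tested. In bulk libraries, fewer cells of a type and less RNA of a gene per cell cannot be told apart.

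Against CD44Neg, the inhibitory SMADs and *Id1* of CD44LowKitPos lay within the CD44Neg range. *Smad6* averaged 8.73 ± 7.41 (SD, n = 3) in CD44LowKitPos and 7.96 ± 6.78 (n = 10) in CD44Neg, *Smad7* 10.3 ± 4.84 and 15.3 ± 11.3, and *Id1* 119.7 ± 55.5 and 141 ± 63.5. *Id2* (log2 fold change -0.92, SE 0.43, adjusted p = 0.229), *Id3* (-1.39, SE 0.63, adjusted p = 0.203) and *Smad5* (-0.95, SE 0.35, adjusted p = 0.108) were not called by edgeR. In limma voom *Id3* was called in this comparison (adjusted p = 0.00683). The receptor list showed 3 lower genes of 12 tested against CD44LowKitNeg and none against CD44Neg. They were *Bmpr2* (-1.93, SE 0.41, adjusted p = 0.00472) and the type I receptors *Acvr1* (-4.04, SE 0.83, adjusted p = 0.00347) and *Acvrl1* (-2.93, SE 0.69, adjusted p = 0.00817), which signal through SMAD1 and SMAD5.

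CD44High cells had the lowest mean levels of *Smad4*, *Smad5*, *Smad6*, *Smad7*, *Id1* and *Id3*. Against CD44LowKitNeg, 5 of 10 members were called and all 5 were lower, beside 8.17% of 12949 genes that were lower. *Smad6* had 8 counts in replicate 20 and none in replicates 21 and 22, or 1.58, 0 and 0 normalized CPM, and the log2 fold change was -6.82 (SE 1.22, adjusted p = 0.00019). In fits without 1 library this fold change ranged from -11.7 to -6.37. *Id1* measured 37, 25 and 12.8 (-3.73, SE 0.50, adjusted p = 5.9e-06). *Smad7* measured 8.31, 2.93 and 4.35 (-3.62, SE 0.74, adjusted p = 0.000701). *Id3* spread widely, with 173, 76.4 and 3.27 (-3.85, SE 0.76, adjusted p = 0.000522), and *Id2* measured 168, 76.2 and 210.3 (-1.76, SE 0.48, adjusted p = 0.00791). None of the 5 overlapped CD44LowKitNeg, nor did *Smad1* with 9.3, 12.2 and 15.8 (-1.21, SE 0.51, adjusted p = 0.0816), beside 11.7% of genes with groups that do not overlap in this direction. *Smad4* (-1.09, SE 0.42, adjusted p = 0.059) and *Smad2* (0.58, SE 0.28, adjusted p = 0.125) were not called. Of the 12 receptors tested, 5 were lower in CD44High than in CD44LowKitNeg, 4 were lower than in CD44Neg, and none was higher.

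Within E11 alone, where both populations have 3 libraries, the same 5 members were called and the log2 fold changes were -7.21 for *Smad6* (SE 1.28), -4.06 for *Smad7* (SE 0.73), -3.79 for *Id1* (SE 0.47), -2.04 for *Id2* (SE 0.52) and -3.87 for *Id3* (SE 0.72), beside 19.5% of all genes called. With all stages, the *Id2* call was lost without CD44LowKitNeg replicate 11, 12 or 13 or any one CD44High library, with an adjusted p of 0.0102 to 0.0465, and limma voom did not call *Smad7* (adjusted p = 0.0155).

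Against CD44Neg, 2 of 10 members were lower in CD44High, *Id1* (log2 fold change -2.50, SE 0.45, adjusted p = 0.000204) and *Id3* (-3.11, SE 0.71, adjusted p = 0.00205), beside 7.25% of genes. These were also the only members without overlap, beside 9.12% of genes. The *Id1* call was lost by limma voom (adjusted p = 0.0139), and DESeq2 gave *Id3* no adjusted p. *Smad6* (-3.73, SE 1.06, adjusted p = 0.0119) and *Smad5* (-1.14, SE 0.36, adjusted p = 0.0228) came close, and *Smad7* (-1.54, SE 0.63, adjusted p = 0.0841) and *Smad1* (-1.19, SE 0.48, adjusted p = 0.0813) did not pass. Without CD44High replicate 21 the *Id3* call was lost (adjusted p = 0.0179) and *Smad5* passed (adjusted p = 0.00947). *Smad6* and *Smad5* were called by DESeq2's Wald test (adjusted p = 0.000403 and 0.0069), and *Smad6* with stage as a covariate (adjusted p = 0.00923). In edgeR *Smad6* also passed without CD44Neg replicate 4 or 6, CD44LowKitPos replicate 17 or CD44High replicate 20, with an adjusted p of 0.00368 to 0.00976. Within E11, *Smad5* was called (-1.56, SE 0.36, adjusted p = 0.00452) with *Id1* (-2.60, SE 0.44, adjusted p = 0.000287) and *Id3* (-3.29, SE 0.70, adjusted p = 0.00217), where 10.8% of genes were called.

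Between the blood-marker populations, *Id1* was lower in CD44High than in CD44LowKitPos (log2 fold change -2.26, SE 0.49, adjusted p = 0.00492) and was the only member called, beside 2.23% of genes. The call was lost without CD44LowKitPos replicate 19 (adjusted p = 0.0434), CD44High replicate 21 (adjusted p = 0.0255) or CD44High replicate 22 (adjusted p = 0.0436), and by limma voom (adjusted p = 0.0802). *Smad6* (-3.85, SE 1.15, adjusted p = 0.0454) also showed no overlap, as did 12% of genes. *Id3* (-1.72, SE 0.73, adjusted p = 0.203) and *Smad1* (0.99, SE 0.56, adjusted p = 0.382) were not called, and the *Id2* ranges of 31.6 to 204 and 76.2 to 210.3 overlapped. In fits without 1 library the log2 fold change of *Id3* ranged from -2.91 to -0.29. Of the pathway lists, 1 receptor of 12 tested, 1 partner of 8 and 1 BMP target of 6 were lower and no gene was higher. They were *Eng*, the endothelial co-receptor (-3.91, SE 0.71, adjusted p = 0.000765), *Zfp423*, with no count in CD44High and 6.95 ± 4.80 normalized CPM (SD, n = 3) in CD44LowKitPos (adjusted p = 7.8e-05), and *Hey1* (-5.09, SE 0.89, adjusted p = 0.000505).

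The TGF-β receptor SMADs were called in none of the 6 comparisons of populations. The ranges of *Smad2* in CD44Neg, CD44LowKitNeg, CD44LowKitPos and CD44High were 54.4 to 114.7, 32.1 to 75.6, 47.5 to 106 and 73.8 to 91.7 normalized CPM. Those of *Smad3* were 15.3 to 32.6, 12.2 to 27.3, 17.3 to 33 and 12.5 to 41.3. For both genes the ranges of any 2 populations overlapped.

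The make-up of the SMAD transcripts shows the same shift within each library, free of the scaling between libraries. Per kb, *Smad6* and *Smad7* together made up 3.46% to 34.7% of the 7 SMAD genes in CD44Neg with a median of 11.6%, and 31.1% to 63.3% in CD44LowKitNeg with a median of 48.4%. The share was 8.19%, 12% and 18.9% in CD44LowKitPos and 7.97%, 2.03% and 3.98% in CD44High. Without CD44Neg replicate 3, which gave the 34.7%, the endothelial populations would not overlap, since the next CD44Neg share was 19%. *Smad1* and *Smad5* made up 40% to 60.5% of the 4 receptor SMADs in CD44Neg and 44.7% to 55.8% in CD44LowKitNeg. In CD44LowKitPos the share was 15.2%, 37.9% and 30.2% and in CD44High 22.8%, 31% and 30.2%, below every endothelial library. The ID genes summed to 300 to 948.5 CPM per kb in CD44Neg, 868 to 1366 in CD44LowKitNeg, 114 to 573 in CD44LowKitPos and 95.5 to 197 in CD44High.

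**Figure D3:**
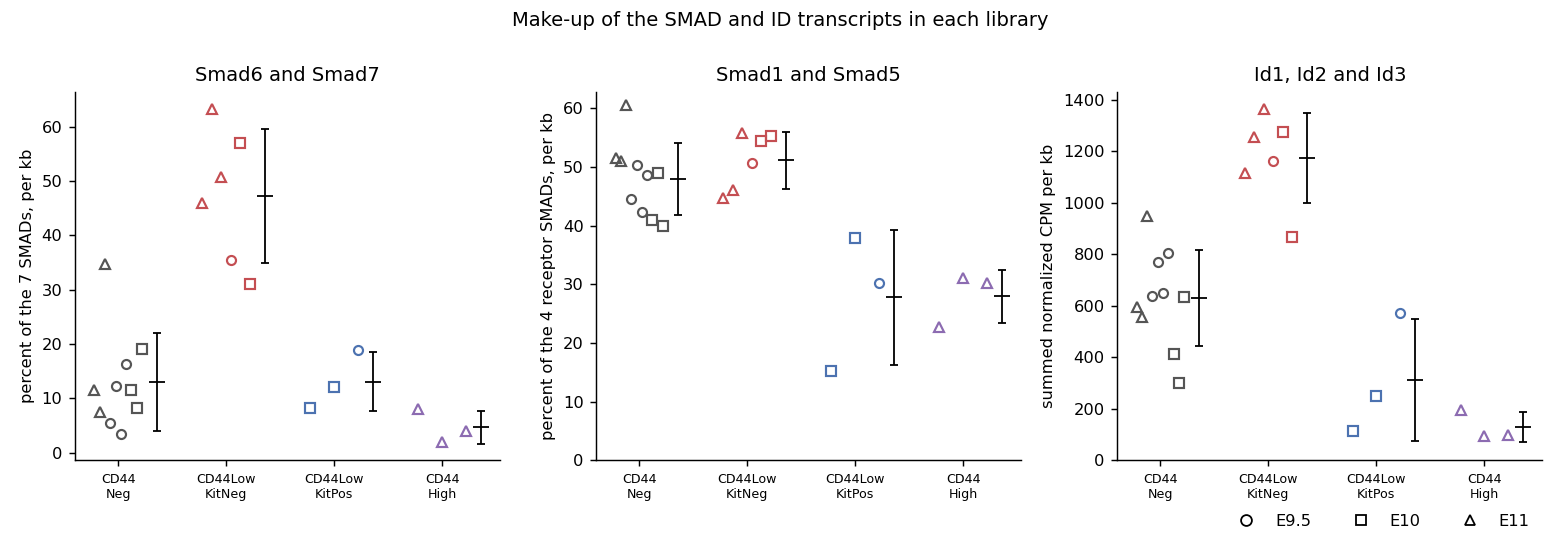
Share of *Smad6* and *Smad7* among the 7 SMAD genes (left, percent), share of *Smad1* and *Smad5* among the 4 receptor SMADs (middle, percent) and summed level of the 3 ID genes (right, normalized CPM per kb) in each library, with the mean and SD in black and stages as in the plot of levels. The left share peaks in CD44LowKitNeg, and the middle share is below 38% in all 6 libraries of the blood-marker populations and at least 40% in all 16 endothelial libraries.

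Stage was tested within the endothelial populations, where the date in the labels moves with it. In CD44Neg, edgeR called no member between E10 and E9.5, between E11 and E10 or between E11 and E9.5, and neither did DESeq2 or limma voom; over all genes edgeR called 0.0178%, 0% and 0.684%. At an unadjusted p under 0.05, 3, 2 and 0 members passed, beside 15.2%, 8.68% and 17.1% of genes. The 3 were the ID genes, lower at E10 than at E9.5: *Id1* with 46.8, 52.1 and 159 at E10 against 136 to 203 at E9.5 (log2 fold change -1.01, SE 0.41, adjusted p = 0.257), *Id2* with 117, 196 and 219 against 259 to 377.5 (-0.73, SE 0.28, adjusted p = 0.224) and *Id3* with 379, 517.5 and 729 against 681 to 921 (-0.53, SE 0.21, adjusted p = 0.253). *Id2* was the only one without overlap, as were 7.87% of genes. At E11, replicate 3 lay above the E9.5 range in all 3 ID genes, and the other 2 libraries lay below it in *Id1* and *Id2* and within it in *Id3*. Between E11 and E10 the 2 members at an unadjusted p under 0.05 were *Smad5* (log2 fold change 0.85, SE 0.27, adjusted p = 0.43) and *Id3* (0.61, SE 0.23, adjusted p = 0.483). All 3 E11 libraries exceeded every E10 and E9.5 library in *Smad5*, a pattern shared with 7.87% of genes against E10 and 9.86% against E9.5.

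In CD44LowKitNeg, E11 was compared with E9.5 and E10 together, because E9.5 has 1 library. No member was called by edgeR, DESeq2 or limma voom, beside 0.173% of genes by edgeR, and 3 members passed an unadjusted p under 0.05, beside 16.8% of genes. *Smad4* measured 75, 75.2 and 104.7 normalized CPM at E11 against 34.8 at E9.5 and 24.7 and 71.2 at E10 (log2 fold change 1.01, SE 0.43, adjusted p = 0.282). *Smad6* measured 58.2, 111.9 and 100.5 at E11 against 32.6, 72.3 and 35.6 before (0.99, SE 0.42, adjusted p = 0.279). *Smad7* measured 55.4, 127.7 and 80.7 against 28.3, 57.1 and 38.7 (1.13, SE 0.42, adjusted p = 0.211). The stages of *Smad4* did not overlap, and neither did those of *Id1* (336 to 364.8 against 304 to 325), as in 11.9% of genes. Some markers also differed between these libraries: *Runx1* had no count at E11 and was at 54.7 at E9.5 and 129 and 44.8 at E10. *Tek* was at 1317 to 1600 at E11 and 681 to 860 before, while *Cdh5* overlapped. The part of these transcripts in the stage values was not tested.

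The test of whether the population difference itself changed between E10 and E11 called no member with any of these tools, and edgeR called 0.00806% of genes. At an unadjusted p under 0.05, 1 member passed, *Smad5*, beside 10.7% of genes. In CD44Neg *Smad5* was at 67.9, 68.3 and 87.7 at E11 and at 37, 39.8 and 48.2 at E10, while in CD44LowKitNeg it was at 26.6, 27.7 and 46.6 at E11 and at 51.5 and 61.4 at E10. CD44LowKitNeg was thus below CD44Neg at E11 and above it at E10 in every library. At E9.5 its single library, with 27.5, lay below all 4 CD44Neg libraries (42.5 to 60.3), as at E11. For E11 against E10 the log2 difference of the differences was -1.60 (SE 0.49, adjusted p = 0.254).

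**Figure D4:**
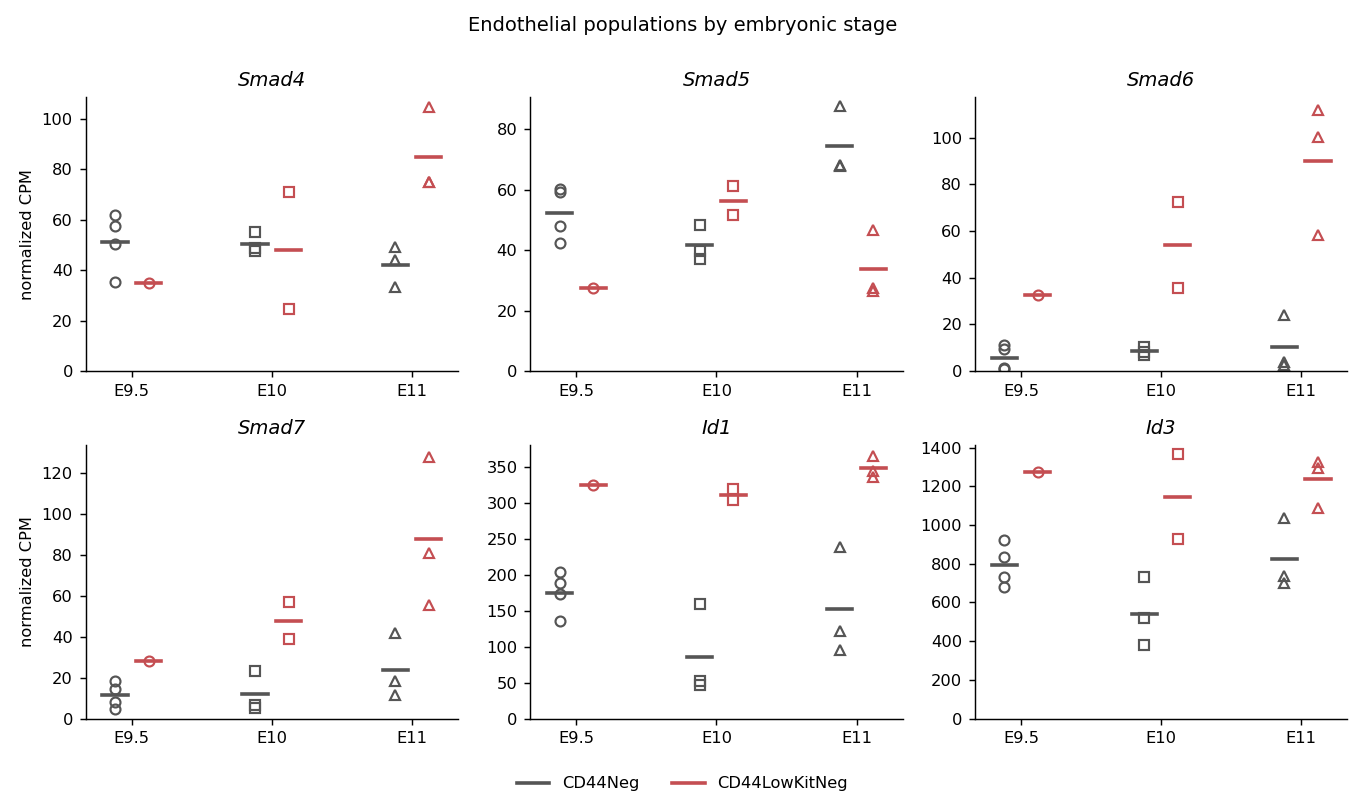
Normalized CPM of 6 members in the CD44Neg (grey) and CD44LowKitNeg (red) libraries at E9.5, E10 and E11; each point is a library and each line the mean. *Smad6* and *Id1* are higher in CD44LowKitNeg at each stage, and *Smad5* is lower in CD44LowKitNeg at E11 and higher at E10.

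Some members varied together across libraries. Pearson's r of log2 CPM over the 22 libraries was 0.90 between *Smad6* and *Smad7*, 0.85, 0.65 and 0.59 for *Id1* with *Id3*, *Id1* with *Id2* and *Id2* with *Id3*, and 0.82 between *Smad7* and *Id1*, and *Smad2* ran against *Smad6* with -0.69. It was 0.47 between *Smad1* and *Smad5* and 0.01 between *Smad2* and *Smad3*, and within CD44Neg -0.23 and -0.10. Within the 10 CD44Neg libraries r was 0.65 between *Smad6* and *Smad7*, 0.92 between *Id1* and *Id3*, 0.84 between *Id1* and *Id2* and -0.87 between *Smad2* and *Smad6*, while *Smad6* and *Id1* gave 0.06 there against 0.83 over all libraries, and *Smad7* gave 0.59 with *Id1* and 0.75 with *Id3* there. These values describe libraries that share populations, stages and depth, and they carry no test.

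The genes most like each member over the 22 libraries were named by the same r among 12949 genes. For *Smad6* they were the fibronectin gene *Fn1* (0.928), *Sost* (0.917) and *Pde9a* (0.908), and for *Smad7* they were *S100a11* (0.921), *Smad6* (0.904) and *Ssfa2* (0.883). For *Id1* they were *AU021092* (0.932), *Pdgfd* (0.928) and the β-catenin gene *Ctnnb1* (0.923), for *Id2* *Ppp4r1l-ps* (0.873), the neuropilin gene *Nrp1* (0.819) and *Skil* (0.803), and for *Id3* the extracellular matrix genes *Nid1* (0.959) and *Fbn2* (0.958) with *Nrep* (0.956).

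**Figure D5:**
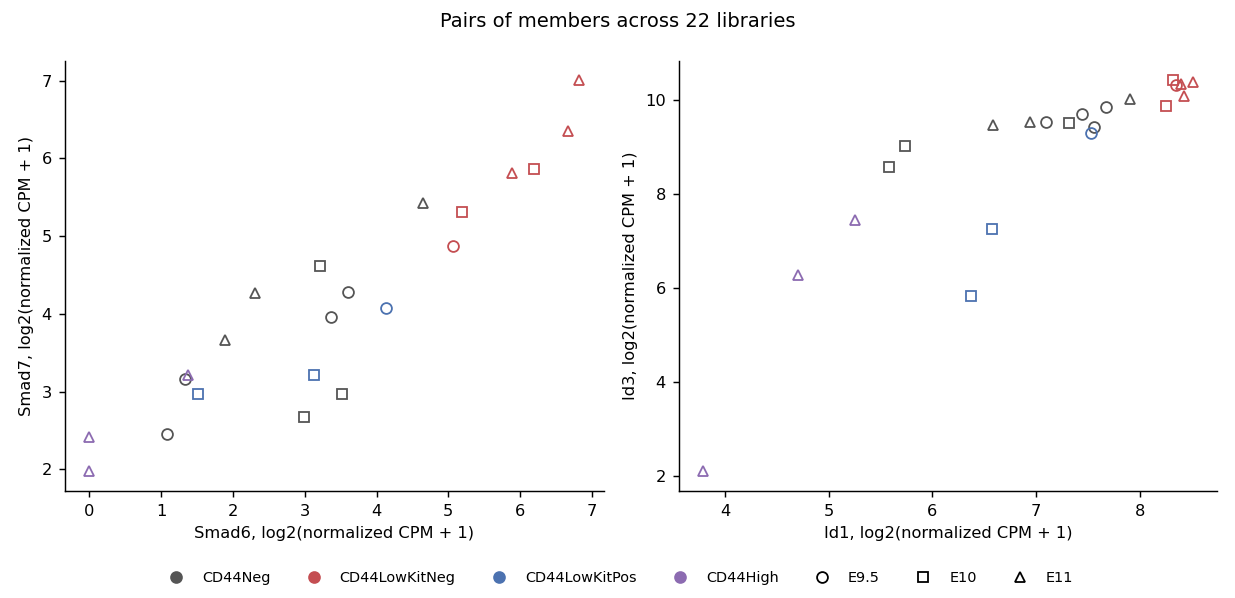
*Smad7* against *Smad6* (left) and *Id3* against *Id1* (right) in each of the 22 libraries, as log2 of normalized CPM plus 1; colours mark the 4 populations and symbols the stages. The 6 CD44LowKitNeg libraries lie at the upper right in both panels, and 2 CD44High libraries have no *Smad6* count.

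The families have 1 further gene each, which are not members. *Smad9*, the remaining BMP receptor SMAD, had 31 counts in CD44LowKitNeg replicate 11, 16 in replicate 14 and 1 in CD44Neg replicate 9, and none in the other libraries. *Id4* had 1 to 160 counts in each of the 6 CD44LowKitNeg libraries, with a mean of 6.42 normalized CPM. It had 28 counts in CD44Neg replicate 3 and none in the other 9 CD44Neg libraries, none in CD44LowKitPos and 1 count in CD44High replicate 20. A count of 0 allows up to 3 counts per library, so the mean in CD44LowKitNeg was at least 14.6-fold higher than in CD44LowKitPos, and at least 8.11-fold higher without replicate 12, which held the 160 counts. The fit of the endothelial populations did not test *Id4*, because it did not pass the filter there. In the fit of all 22 libraries edgeR did not call it between CD44LowKitPos and CD44LowKitNeg (adjusted p = 0.0684).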

How the data were processed

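RNA of 22 libraries of 25 sorted cells was amplified with SMART-Seq2. The authors removed adaptors (FASTX), aligned reads with RNA STAR and obtained counts per gene from HTSeq, and the submitters' processing notes also name FastQC and the build mm10. The values used here are the deposited raw counts, whole numbers without normalization. The annotation, the strand setting and the treatment of reads shared between genes are not given in the sources used here, so antisense or overlapping genes cannot be told apart from members. All columns were matched to libraries by their labels.

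Genes were filtered with filterByExpr (minimum count 10, minimum total 15), scaled by TMM and tested with edgeR's quasi-likelihood test (edgeR 4.0.16, R 4.3.3) with Benjamini-Hochberg adjustment over all tested genes, and called at an adjusted p under 0.01. CD44LowKitNeg and CD44Neg were compared over 16 libraries, the other populations in a fit of all 22, and stages within a population. The SE of a log2 fold change comes from the F statistic, and intervals are at the 95% level. Log2 CPM used a prior count of 2. Levels per kb used exon lengths of a GENCODE annotation of GRCm38, which may differ from the authors'. Library pairs of the same population and stage differed by a chi-square of 17 to 85.2 per degree of freedom, so replicates differed by more than counting error. Reads carry no molecular identifiers, so limits for counts of 0 cover counting error only. Alternatives were DESeq2 1.42.0 (size factors and Wald test), limma voom (limma 3.58.1), no filter, *Rn45s* left out, an adjusted p under 0.05, stage as a covariate, fits within stage and leaving out each library. The fits were tested on simulated data. Genes named beside the members are the up to 3 with the smallest adjusted p of each list, and the 3 most correlated genes. The members and lists were chosen with earlier results of these data known.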

Additional observations from a re-analysis of the deposited data

Results flagged for a closer look

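Each member was checked in the groups of 4 to 10 libraries, 30 groups in all, for a library far from the others, and 3 were found. Chance alone gives about 1 in 20 groups. In CD44Neg, *Smad6* was at 24.2 normalized CPM in replicate 3, where the next library had 11.2, and *Smad7* was at 42 in the same library, where the next had 23.4. *Smad2* was at 114.7 in CD44Neg replicate 6 (E9.5), where the next had 83.4. That library had the lowest CD44Neg levels of *Smad6* and *Smad7*. It also had the fewest genes with a count (10825, others at least 11307) and the lowest share of the ribosomal RNA gene *Rn45s* (1.92% of counts, other CD44Neg libraries 9.12% to 19.4%), whose part in these values was not tested.

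*Smad5* differed in opposite directions at E10 and E11. The CD44LowKitNeg libraries differed from the CD44Neg mean by -41 normalized CPM on average at E11, with all 3 libraries below it, and by 14.8 at E10, with both libraries above it. At E9.5 the single CD44LowKitNeg library (27.5) lay below all 4 CD44Neg libraries (42.5 to 60.3). The interaction in edgeR gave an adjusted p of 0.254, so a difference between the stages was not shown.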

How the results depend on the processing

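Of 1202 alternative values of the reported member differences, 1083 kept their direction and their side of the threshold, 76 lost and 36 gained a call, and 7 changed sign. These sign changes, none of them in a called difference, were *Smad1* in CD44LowKitNeg vs CD44Neg within E11 (-0.18) and in 4 of 16 fits without 1 library (-0.10 to -0.053, where all 16 fits spanned -0.10 to 0.18), and at E10 *Smad5* (0.44) and *Smad4* (-0.077). Outside these 1202 values, *Smad4* in CD44LowKitPos vs CD44LowKitNeg (-0.48 to 0.24) and *Id1* in CD44LowKitPos vs CD44Neg (-0.24 to 0.05) changed sign within E9.5 and E10. For CD44LowKitNeg vs CD44Neg, 5 members were called, against 0 within E11, 0 within E10, 3 with all 22 libraries and 3 to 5 without 1 library. For CD44LowKitPos vs CD44LowKitNeg, 1 member was called, against 6 at 0.05, 2 with DESeq2 size factors, 5 with the Wald test, 3 with limma voom, *Id2* in place of *Smad1* with no filter, 0 with stage as a covariate, 0 within stages, 2 without CD44High and 0 to 2 without 1 library. For CD44LowKitPos vs CD44Neg, 1 was called, against 0 with no filter, 0 with stage as a covariate, 0 within stages, 0 without CD44High and 0 to 1 without 1 library, and limma voom called *Id3* in place of *Smad1*. For CD44High vs CD44LowKitPos, 1 was called, against 2 at 0.05, 2 with the Wald test, 0 with limma voom and 0 to 1 without 1 library. For CD44High vs CD44Neg, 2 were called, against 4 at 0.05, 1 (*Id3*) with limma voom and 2 to 3 without 1 library. Within-stage values came from the fit of all 22 libraries, so that 2 choices differ there, and the cause of these changes was not tested. Leaving the CD44High libraries out was chosen after seeing the data. No paired analysis was possible because no source used here says which libraries came from the same embryos or litters. The 3 libraries per blood-marker population, and the single CD44LowKitNeg library at E9.5, limit what could be shown.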
